A study of Mus musculus with 16 samples.

Results

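The MAP kinase phosphatases and Sprouty feedback genes described here are 10 genes that restrain MAP kinase signalling: Dusp1, Dusp4, Dusp5, Dusp6, Dusp8, Dusp10, Dusp16, Spry2, Spry4 and Spred1. They were chosen by symbol from the count table, where all 10 were found among 20295 genes. All 10 also passed the low-count filter, which kept 12786 genes for testing.

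Transcripts were measured by RNA sequencing in immortalized mouse brown preadipocytes (BAT-LgT, 1 line carrying SV40 large T antigen) that had been differentiated into adipocytes and were treated on day 7. Cells were pretreated for 1 h and stimulated for 3 h. SR-3420 is a ligand of ABHD5 that releases it to activate the lipase ATGL, so that lipolysis starts without protein kinase A. The study asked which transcriptional responses to lipolysis need the released fatty acids to be activated or oxidized. The 16 samples fell into 6 groups. Vehicle samples (n = 2, replicates 2 and 3) received DMSO, and SR-3420 samples (n = 2, replicates 1 and 3) received the ligand at 10 µM by the labels, whereas the paper states a higher dose. Triacsin C samples (n = 3) received 5 µM of this inhibitor of the long-chain acyl-CoA synthetases that activate fatty acids, and etomoxir samples (n = 3) received 50 µM of this inhibitor of CPT1, which admits fatty acids to mitochondria for oxidation. The triacsin C with SR-3420 group (n = 3) and the etomoxir with SR-3420 group (n = 3) received inhibitor and ligand together. Vehicle replicate 1 and SR-3420 replicate 2 were not analysed here.

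Total counts were 14032494 and 10097582 in the vehicle samples, and 19156037 and 15667121 in the SR-3420 samples. They ranged from 9452861 to 15818919 (median 13164376) with triacsin C and from 10659704 to 16265789 (median 12043744) with triacsin C and SR-3420. The range was 10993504 to 14993463 (median 11813662) with etomoxir and 13173278 to 25670624 (median 16512525) with etomoxir and SR-3420. At this depth the member with the fewest reads in vehicle samples, Dusp8, had 131 and 97 counts. Across the 14 pairs of replicates within groups, the chi-square statistic per degree of freedom ran from 4.53 to 165, so replicates differed by more than counting error. The libraries numbered 3 stood apart: on the first component of the deviations from group means, which held 66.5% of that variance, all 6 had positive scores, from 13.8 to 46.0. Of the other libraries, triacsin C replicate 1 scored 8.04 and etomoxir with SR-3420 replicate 2 scored 5.68, and the rest were negative. Member values that change without the libraries numbered 3 are given beside the results. That fit leaves 1 vehicle and 1 SR-3420 sample, which are assumed to vary like the samples of the other groups.

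Growth factor receptors and stress signals act through cascades of kinases that end in the MAP kinases ERK, JNK and p38. MAP kinase phosphatases of the DUSP family remove phosphate from these kinases, while Sprouty and Spred proteins act further up the cascade, nearer the receptor. Many of these genes are themselves switched on by MAP kinase signalling, so their transcripts are known as part of a negative feedback loop.

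Promoter windows from RefSeq on GRCm38.p6, covering 250 bases before to 50 after the start site, were available for 8 of the 10 members, and not for Dusp4 and Spry4. The windows of Dusp1, Dusp5, Spry2 and Dusp8 are shown because the first 3 had the largest fold changes with SR-3420 and Dusp8 had a response that differed under triacsin C. These windows lie at chr17:26508423-26508722 (minus strand) for Dusp1, chr19:53528895-53529194 (plus strand) for Dusp5, chr14:105896770-105897069 (minus strand) for Spry2 and chr7:142095235-142095534 (minus strand) for Dusp8. They are written 5′ to 3′ along the gene, with matches to the motifs searched in capitals.
Dusp1: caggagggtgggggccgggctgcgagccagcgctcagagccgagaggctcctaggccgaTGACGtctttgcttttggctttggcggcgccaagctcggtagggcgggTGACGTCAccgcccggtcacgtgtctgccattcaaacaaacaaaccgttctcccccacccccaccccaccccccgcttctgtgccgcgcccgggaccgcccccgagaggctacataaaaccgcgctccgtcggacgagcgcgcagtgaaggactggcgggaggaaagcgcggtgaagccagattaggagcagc
Dusp5: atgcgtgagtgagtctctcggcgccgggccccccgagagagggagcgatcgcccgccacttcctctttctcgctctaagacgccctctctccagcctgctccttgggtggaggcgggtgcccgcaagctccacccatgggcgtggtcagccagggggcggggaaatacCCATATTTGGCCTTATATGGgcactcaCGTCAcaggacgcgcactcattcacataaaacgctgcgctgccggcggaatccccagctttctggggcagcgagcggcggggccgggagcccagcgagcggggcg
Spry2: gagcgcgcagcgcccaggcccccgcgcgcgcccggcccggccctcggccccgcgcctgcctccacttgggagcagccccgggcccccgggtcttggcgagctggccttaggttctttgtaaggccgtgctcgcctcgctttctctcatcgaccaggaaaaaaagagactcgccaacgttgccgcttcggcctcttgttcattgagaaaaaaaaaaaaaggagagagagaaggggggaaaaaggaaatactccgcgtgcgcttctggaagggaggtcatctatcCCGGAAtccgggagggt
Dusp8: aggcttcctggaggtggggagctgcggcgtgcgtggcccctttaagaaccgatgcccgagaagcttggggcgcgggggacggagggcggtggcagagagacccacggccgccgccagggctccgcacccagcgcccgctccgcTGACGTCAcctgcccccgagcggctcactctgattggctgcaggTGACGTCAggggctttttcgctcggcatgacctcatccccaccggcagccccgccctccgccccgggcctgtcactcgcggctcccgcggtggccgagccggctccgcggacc
The 6 motifs were searched on both strands and were chosen after the expression values were seen. The cyclic AMP response element TGACGTCA, present in 1.79% of 32851 windows of this length, was in the Dusp1 window 143 bases before the start site and in the Dusp8 window at 107 and 63 bases before it. Its shorter form TGACG, which overlaps it and was in 20.8% of windows, was in 4 of the 8 members searched: Dusp1, Dusp5, Dusp8 and Dusp16. The CArG box, bound by serum response factor, was in 1.63% of windows and occurred in the Dusp5 window at 82 and 72 bases before the start site. The ETS core CCGGAA (14.9% of windows) occurred in Spry2, and the EGR motif GCGNGGGCG (5.55% of windows) in Dusp16. The AP-1 motif TGANTCA, in 7.81% of windows, was in 0 of the 8. Such matches describe the letters and are not evidence of a bound factor.

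In vehicle samples the members covered a wide range of levels per length of transcript. On the scale of TMM-normalized CPM (counts scaled to a common library size) per kb of counted length, Dusp4 was highest at 102 ± 29.5 (mean ± SD, n = 2) and Dusp8 lowest at 1.92 ± 0.0928. Dusp4 stood at the 94.7 percentile of all tested genes on this scale and Dusp8 at the 19.4 percentile. Between them came Dusp5 (34.2 ± 12.2), Dusp1 (29.6 ± 8.44), Dusp6 (18.9 ± 0.33), Dusp10 (15.6 ± 2.89), Spry2 (12.8 ± 2.34), Spry4 (11.8 ± 0.456), Spred1 (9.63 ± 2.7) and Dusp16 (7.95 ± 0.465). Neighbours whose samples overlapped in this order were Dusp5 and Dusp1, Dusp10 and Spry2, Spry2 and Spry4, Spry4 and Spred1, and Spred1 and Dusp16. The counted length of Dusp5, 1155 bases, is close to its coding length of 1152, so its value per kb is over coding sequence and is not on quite the same footing as the others. With SR-3420 the levels per kb of Dusp5 (204 ± 36.2, n = 2) and Dusp4 (188 ± 74.1) overlapped.

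**Figure D1:**
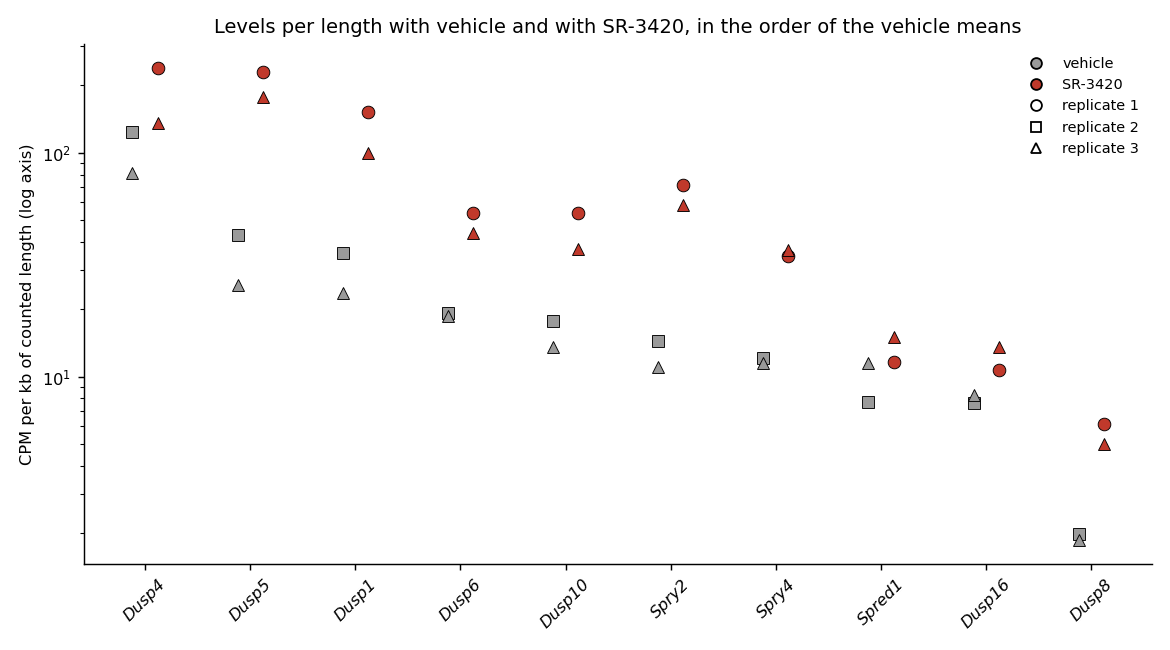
TMM-normalized CPM per kb of counted length (log axis) for each member in the vehicle (grey) and SR-3420 (red) samples, 1 point per sample with the shape giving the replicate number, in the order of the vehicle means. Dusp4 leads with vehicle at 102 CPM per kb and Dusp8 is lowest at 1.92, and the SR-3420 samples of Dusp5 and Dusp4 overlap.

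The first comparison asks what lipolysis without inhibitor does to these transcripts. A gene was called when its adjusted p was under 0.05, using the quasi-likelihood test of edgeR and Benjamini-Hochberg correction across 12786 genes. With SR-3420 against vehicle, 7 of the 10 members rose and 0 fell, where 4.75% of all tested genes rose. With SR-3420 added to triacsin C, 9 of 10 rose (17.3% of all tested genes), and with SR-3420 added to etomoxir, 8 of 10 rose (12.5% of all tested genes). The 3 responses use separate samples. The median log2 fold change of the members was 1.53, 1.01 and 1.18 in these 3 comparisons, against -0.004, 0.019 and 0.009 for all tested genes. Dusp1, Dusp5, Dusp6, Dusp8, Dusp10, Spry2 and Spry4 rose in all 3, Dusp16 in 2, Spred1 in 1 and Dusp4 in 0. The sign of the log2 fold change was positive for all 10 members in each of the 3 responses, under each scaling tried. These are bulk samples, in which fewer cells of a kind and less RNA per cell cannot be told apart.

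**Figure D2:**
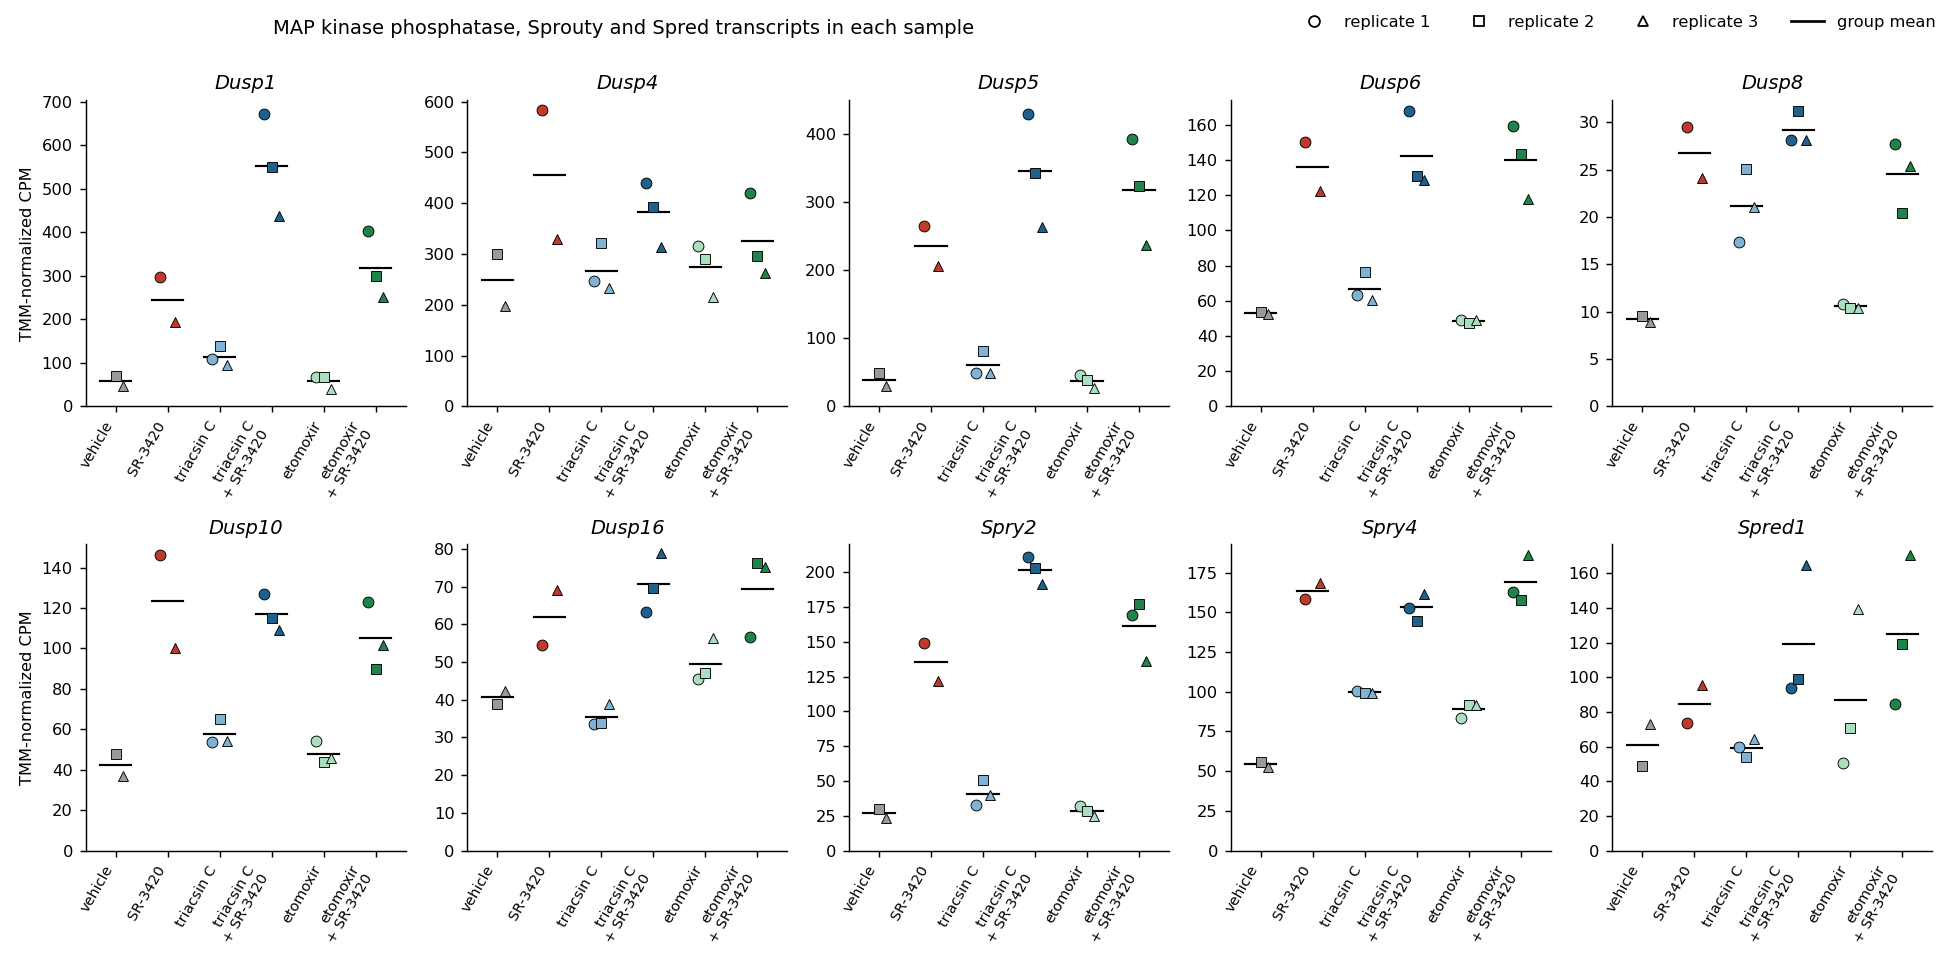
TMM-normalized CPM (vertical axes, from 0) of the 10 members in each of the 16 samples by treatment group, with shapes for the replicate number and a line at the group mean (n = 2 for vehicle and SR-3420, n = 3 for the others). Dusp5 samples with SR-3420 lie between 206 and 430 CPM and those without it between 27.5 and 82.1 CPM.

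Dusp5, Dusp1 and Dusp4 encode inducible phosphatases of the nucleus. Dusp5, which acts on ERK, had the largest response among the members in each arm. Its levels were 49.4 and 29.5 CPM with vehicle against 265 and 206 CPM with SR-3420. Under triacsin C it went from 49.2, 82.1 and 49.8 CPM to 430, 343 and 264 CPM when SR-3420 was added, and under etomoxir from 45.8, 38.6 and 27.5 CPM to 392.5, 324 and 237 CPM, in replicates 1, 2 and 3. Every sample with SR-3420 was above every sample without it, and the libraries numbered 3 were the lowest of their group except with triacsin C alone. The log2 fold change of Dusp5 was 2.58 ± 0.37 (SE; 2 against 2 samples; adjusted p 0.00104, edgeR quasi-likelihood test, Benjamini-Hochberg adjusted) without inhibitor. It was 2.51 ± 0.3 (adjusted p 4.03e-05) with triacsin C and 3.09 ± 0.31 (adjusted p 2.21e-05) with etomoxir, by the same edgeR test with Benjamini-Hochberg adjustment over 3 against 3 samples. The gene (NM_001085390) lies at 53603808 to 53615812 on chromosome 19 of mm9, plus strand, in 4 exons.

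Dusp1 encodes a phosphatase with a preference for p38 and JNK that also acts on ERK, and the gene (NM_013642) lies at 26642536 to 26645417 on chromosome 17 of mm9, minus strand, in 4 exons. Its level was 69.1 and 45.9 CPM with vehicle and 296 and 194 CPM with SR-3420. With triacsin C it was 109, 138 and 96.2 CPM alone and 672, 551 and 437 CPM with SR-3420. With etomoxir it was 68.4, 68.4 and 40.8 CPM alone and 404, 300 and 252 CPM with SR-3420. The groups with and without SR-3420 did not overlap in any arm, and the samples with triacsin C and SR-3420 were the highest of all 16. For Dusp1 the log2 fold change with SR-3420 was 2.09 ± 0.34 without inhibitor (adjusted p 0.00229), 2.28 ± 0.28 with triacsin C (adjusted p 4.78e-05) and 2.43 ± 0.28 with etomoxir (adjusted p 6.24e-05), by the edgeR quasi-likelihood test, Benjamini-Hochberg adjusted. When the fit held only the vehicle and SR-3420 samples, the response without inhibitor was 2.07 with an adjusted p of 0.0602 (edgeR, Benjamini-Hochberg).

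Dusp4, another nuclear phosphatase and the member with the highest level per length, was the 1 member not called in any of the 3 responses by the fit with 1 mean per group, and its calls under other settings are given at the end. It measured 300 and 198 CPM with vehicle and 584 and 329 CPM with SR-3420. In the triacsin C arm its range was 233 to 322 CPM without and 314 to 440 CPM with SR-3420, and in the etomoxir arm 215 to 316 CPM without and 263 to 420 CPM with it. The groups overlapped in both inhibitor arms and lay apart without inhibitor. Its log2 fold change was 0.87 ± 0.32 without inhibitor (adjusted p 0.117), 0.52 ± 0.26 with triacsin C (adjusted p 0.131) and 0.26 ± 0.26 with etomoxir (adjusted p 0.511), by the edgeR quasi-likelihood test, Benjamini-Hochberg adjusted. With only the compared groups in the fit, its response under triacsin C was 0.52 with an adjusted p of 0.0374 (edgeR, Benjamini-Hochberg). Over the fits without 1 library, the Dusp4 response ran from 0.4 to 1.23 without inhibitor and from 0.03 to 0.39 under etomoxir.

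Dusp6 encodes the cytoplasmic phosphatase specific for ERK, and its gene (NM_026268) lies at 98725865 to 98730123 on chromosome 10 of mm9. It was measured at 53.6 and 52.3 CPM with vehicle, 150 and 122 CPM with SR-3420, 60.2 to 76.2 CPM with triacsin C and 129 to 168 CPM with triacsin C and SR-3420. With etomoxir it was 47.7 to 48.9 CPM, and 118 to 160 CPM once SR-3420 was added. Samples with SR-3420 were all above those without it, and the unstimulated etomoxir samples differed from each other by little. For Dusp6 the log2 fold change was 1.36 ± 0.18 without inhibitor (adjusted p 0.000791), 1.1 ± 0.15 with triacsin C (adjusted p 0.000108) and 1.53 ± 0.15 with etomoxir (adjusted p 2.16e-05), by the edgeR quasi-likelihood test, Benjamini-Hochberg adjusted. With only the vehicle and SR-3420 samples in the fit, its response without inhibitor was 1.33 with an adjusted p of 0.0797 (edgeR, Benjamini-Hochberg).

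Dusp8, Dusp10 and Dusp16 encode phosphatases that act mainly on the stress-activated kinases JNK and p38. Dusp8 (NM_008748; chromosome 7 of mm9, 149265392 to 149281189, minus strand, 7 exons) was the least abundant member per length. Its level was 9.58 and 8.95 CPM with vehicle and 29.5 and 24.1 CPM with SR-3420. In the triacsin C arm it was 17.3, 25 and 21 CPM without SR-3420 and 28.1, 31.2 and 28.1 CPM with it, and in the etomoxir arm 10.8, 10.4 and 10.4 CPM without and 27.7, 20.4 and 25.4 CPM with it. All samples with SR-3420 were above their controls, but the triacsin C samples were already above both vehicle samples and all samples with etomoxir alone. For Dusp8 the log2 fold change was 1.53 ± 0.2 without inhibitor (adjusted p 0.000633), 0.46 ± 0.16 with triacsin C (adjusted p 0.0347) and 1.22 ± 0.16 with etomoxir (adjusted p 0.000179), by the edgeR quasi-likelihood test, Benjamini-Hochberg adjusted. With only the vehicle and SR-3420 samples in the fit, the response without inhibitor was 1.5 (edgeR, Benjamini-Hochberg adjusted p 0.0982). The response under triacsin C was not called without triacsin C replicate 1 (0.34, adjusted p 0.139) or 3 (0.46, adjusted p 0.0862), or without triacsin C with SR-3420 replicate 1 (0.49, adjusted p 0.0579), 2 (0.46, adjusted p 0.0711) or 3 (0.49, adjusted p 0.0604), in edgeR with Benjamini-Hochberg adjustment. It was also not called without the libraries numbered 3 (0.51, edgeR Benjamini-Hochberg adjusted p 0.111).

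Dusp10 ranged from 36.8 to 65.2 CPM over the 8 samples without SR-3420 and from 89.8 to 146 CPM over the 8 samples with it. Those ranges did not overlap. Its log2 fold change was 1.54 ± 0.22 without inhibitor (adjusted p 0.000922), 1.02 ± 0.17 with triacsin C (adjusted p 0.000554) and 1.13 ± 0.17 with etomoxir (adjusted p 0.000484), by the edgeR quasi-likelihood test, Benjamini-Hochberg adjusted. With only the vehicle and SR-3420 samples in the fit, the Dusp10 response was 1.51 with an adjusted p of 0.0954 (edgeR, Benjamini-Hochberg). Dusp16 was measured at 39 and 42.3 CPM with vehicle and 54.6 and 69.2 CPM with SR-3420. It was at 33.5, 33.8 and 38.8 CPM with triacsin C and 63.2, 69.7 and 79 CPM with triacsin C and SR-3420, and at 45.4, 47 and 56.4 CPM with etomoxir and 56.8, 76.2 and 75.3 CPM with etomoxir and SR-3420. The groups lay apart widely with triacsin C and almost touched with etomoxir. The log2 fold change of Dusp16 was 0.61 ± 0.19 without inhibitor (adjusted p 0.0667), 1 ± 0.15 with triacsin C (adjusted p 0.000256) and 0.48 ± 0.15 with etomoxir (adjusted p 0.0324), by the edgeR quasi-likelihood test, Benjamini-Hochberg adjusted. By DESeq2 the response of Dusp16 without inhibitor passed (0.59, Benjamini-Hochberg adjusted p 0.028). With a block for replicate number Dusp16 passed there too (0.68, edgeR, Benjamini-Hochberg adjusted p 0.00177). Its call under etomoxir was lost without etomoxir replicate 1 (0.42, adjusted p 0.105) or 2 (0.45, adjusted p 0.107) and without etomoxir with SR-3420 replicate 2 (0.41, adjusted p 0.126) or 3 (0.42, adjusted p 0.0879), in edgeR with Benjamini-Hochberg adjustment. The same call was lost with no low-count filter (adjusted p 0.0798), with only the compared groups (adjusted p 0.153) and with library size alone (adjusted p 0.122), in edgeR with Benjamini-Hochberg adjustment.

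Spry2 and Spry4 encode Sprouty proteins, inhibitors of receptor tyrosine kinase signalling to ERK. Spry2 (NM_011897; chromosome 14 of mm9, 106291164 to 106296036, minus strand, 2 exons) was at 30 and 23.2 CPM with vehicle and at 149 and 122 CPM with SR-3420. With triacsin C it was at 32.5, 50.5 and 39.9 CPM alone and 211, 203 and 192 CPM with SR-3420. With etomoxir it was at 32.3, 28.2 and 24.5 CPM alone and 169, 177 and 136 CPM with SR-3420. The samples with SR-3420 were far above the others in all arms, and those with triacsin C and SR-3420 were the highest. The log2 fold change of Spry2 was 2.35 ± 0.23 without inhibitor (adjusted p 5.75e-05), 2.3 ± 0.18 with triacsin C (adjusted p 3.06e-06) and 2.5 ± 0.18 with etomoxir (adjusted p 2.05e-06), by the edgeR quasi-likelihood test, Benjamini-Hochberg adjusted.

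Spry4 (NM_011898) was at 55.7 and 52.8 CPM with vehicle and 158 and 169 CPM with SR-3420. With triacsin C it was at 100.4, 99.5 and 99.4 CPM alone and 153, 145 and 162 CPM with SR-3420. With etomoxir it was at 83.3, 91.8 and 91.8 CPM alone and 163, 158 and 186 CPM with SR-3420. All samples given either inhibitor alone lay between the vehicle samples and the samples with SR-3420, while the 3 groups with SR-3420 overlapped. Its log2 fold change with SR-3420 was 1.59 ± 0.12 without inhibitor (adjusted p 1.21e-05), 0.62 ± 0.1 with triacsin C (adjusted p 0.00037) and 0.93 ± 0.1 with etomoxir (adjusted p 4.05e-05), by the edgeR quasi-likelihood test, Benjamini-Hochberg adjusted.

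Spred1 encodes a Sprouty-related protein that brings neurofibromin to Ras. It was at 48.8 and 72.9 CPM with vehicle, and at 73.8 and 95.3 CPM with SR-3420. With triacsin C it was at 59.6, 53.7 and 64.1 CPM alone and 94, 99.1 and 165 CPM with SR-3420, and with etomoxir at 50.6, 70.6 and 139 CPM alone and 84.8, 119 and 171 CPM with SR-3420. The library numbered 3 was the highest of its group in all 6 groups, and the etomoxir groups overlapped. Within each replicate number the etomoxir sample with SR-3420 was above that without it. The log2 fold change of Spred1 was 0.48 ± 0.43 without inhibitor (adjusted p 0.578), 1.01 ± 0.35 with triacsin C (adjusted p 0.0393) and 0.53 ± 0.35 with etomoxir (adjusted p 0.306), by the edgeR quasi-likelihood test, Benjamini-Hochberg adjusted. The call under triacsin C was lost without triacsin C replicate 1 (1.01, adjusted p 0.0892), 2 (0.94, adjusted p 0.116) or 3 (1.07, adjusted p 0.0746) and without triacsin C with SR-3420 replicate 2 (1.18, adjusted p 0.0501) or 3 (0.71, adjusted p 0.17), in edgeR with Benjamini-Hochberg adjustment. With library size alone it was lost as well (edgeR, Benjamini-Hochberg adjusted p 0.0533). With a block for replicate number in the fit, the response under etomoxir was called (0.57, edgeR, Benjamini-Hochberg adjusted p 0.0199). Over the fits without 1 library the Spred1 response ran from 0.23 to 1.04 under etomoxir and from 0.21 to 0.8 without inhibitor. Without etomoxir replicate 3 the response under etomoxir was called at 1.04 (adjusted p 0.031), and without the libraries numbered 3 at 0.77 (adjusted p 0.0275), in edgeR with Benjamini-Hochberg adjustment.

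**Figure D3:**
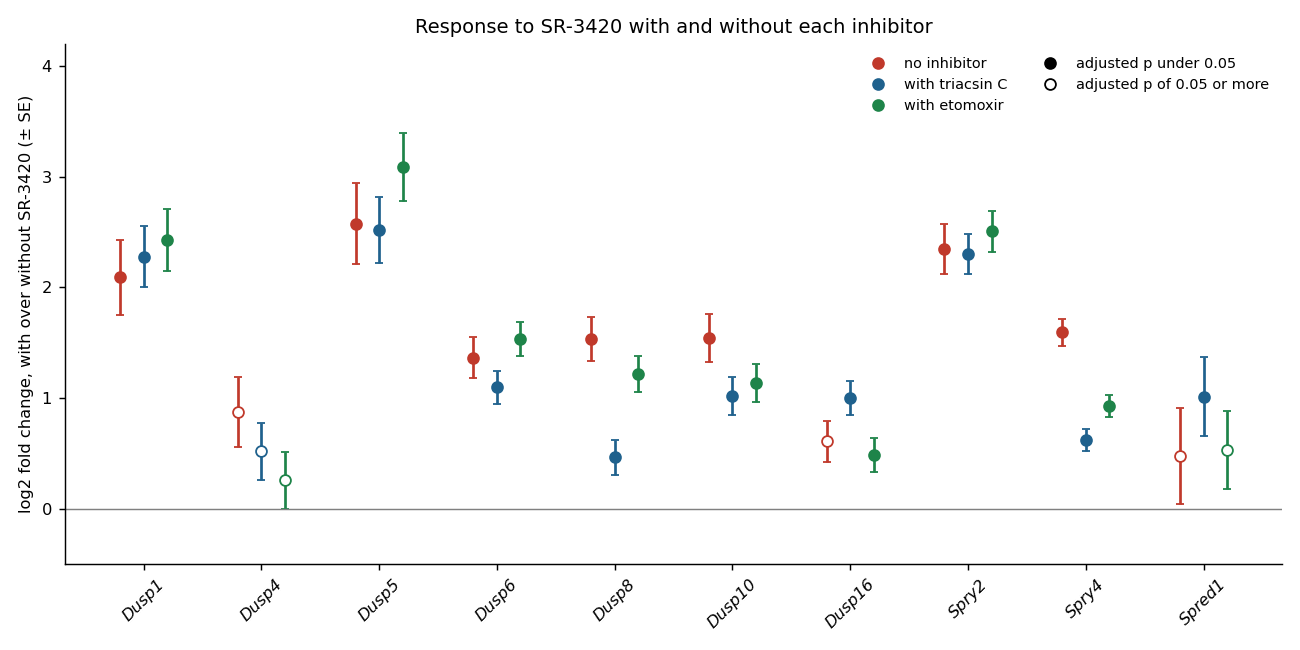
Log2 fold change of each member with over without SR-3420 (vertical axis, bars are SE) without inhibitor (red), with triacsin C (blue) and with etomoxir (green), filled where the adjusted p was under 0.05. Dusp5 under etomoxir is the highest point at 3.09, all points are above 0, and Dusp8 and Spry4 are lower with triacsin C (0.46 and 0.62) than without inhibitor (1.53 and 1.59).

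The inhibitors alone show whether blocking fatty acid activation or mitochondrial uptake shifts the same transcripts without SR-3420. These comparisons share the vehicle samples with the response to SR-3420 without inhibitor, so they are given side by side and not compared. With triacsin C against vehicle, Dusp8 and Spry4 rose and 0 members fell, which makes 2 of 10 members higher where 4.77% of all tested genes rose. Dusp8 was higher by 1.19 ± 0.19 on the log2 scale (adjusted p 0.000891) and Spry4 by 0.88 ± 0.12 (adjusted p 0.000217), with all 3 triacsin C samples above both vehicle samples (edgeR quasi-likelihood test, Benjamini-Hochberg adjusted). Dusp8 was not called without the libraries numbered 3 (1.13, edgeR Benjamini-Hochberg adjusted p 0.0635). Separate groups without a call were also seen for Dusp6 and Dusp10 (all higher, 0.33 ± 0.17 and 0.45 ± 0.2 on the log2 scale) and for Dusp16 (all lower, -0.2 ± 0.17). How often such small groups lay apart among all tested genes was not computed. Dusp1 and Spry2 had separate groups too, with log2 fold changes of 0.99 ± 0.31 (adjusted p 0.0534) and 0.62 ± 0.2 (adjusted p 0.0639) that did not pass (edgeR quasi-likelihood test, Benjamini-Hochberg adjusted). By DESeq2 both passed, Dusp1 at 0.97 (Benjamini-Hochberg adjusted p 0.0193) and Spry2 at 0.6 (Benjamini-Hochberg adjusted p 0.034). In edgeR with Benjamini-Hochberg adjustment, Dusp1 passed with only the compared groups (adjusted p 0.0339) and with library size alone (adjusted p 0.0349), and Spry2 passed without triacsin C replicate 1 (0.77, adjusted p 0.0337). With a block for replicate number, Dusp1 (0.9, adjusted p 0.000562), Spry2 (0.62, adjusted p 0.0104) and Dusp5 (0.555, adjusted p 0.0471) passed, in edgeR with Benjamini-Hochberg adjustment. The log2 fold changes of the other 6 members ran from -0.2 for Dusp16 to 0.61 for Dusp5.

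With etomoxir against vehicle, 0 of 10 members were called in either direction by the edgeR quasi-likelihood test, Benjamini-Hochberg adjusted, where 0.0235% of all tested genes were called. At an unadjusted p under 0.05 there was 1 member, Spry4, and DESeq2 called 1, also Spry4. All 3 etomoxir samples of Spry4 were above both vehicle samples, with a log2 fold change of 0.71 ± 0.11 and an adjusted p of 0.0677 by the edgeR quasi-likelihood test, Benjamini-Hochberg adjusted. By DESeq2 this was 0.72 with a Benjamini-Hochberg adjusted p of 7.56e-08. With a block for replicate number Spry4 passed too (0.73, edgeR, Benjamini-Hochberg adjusted p 0.0128). The other 9 members had log2 fold changes from -0.13 for Dusp6 to 0.51 for Spred1. Groups lay apart without a call for Dusp8 and Dusp16 (all higher, 0.19 ± 0.18 and 0.29 ± 0.17) and for Dusp6 (all lower, -0.13 ± 0.17).

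A further comparison asks whether the stimulated level itself differed with an inhibitor present. With triacsin C and SR-3420 against SR-3420 alone, 1 member of 10 was higher, Dusp1, and 1.02% of all tested genes were higher. The 3 samples with both agents, at 437 to 672 CPM, lay above the 2 with SR-3420 alone, and the log2 fold change was 1.17 ± 0.31 (adjusted p 0.0457, edgeR quasi-likelihood test, Benjamini-Hochberg adjusted). That call was lost in each fit that left out 1 of the 5 libraries: SR-3420 replicate 1 (1.51, adjusted p 0.144) or 3 (0.9, adjusted p 0.193), or triacsin C with SR-3420 replicate 1 (1.01, adjusted p 0.12), 2 (1.18, adjusted p 0.0906) or 3 (1.32, adjusted p 0.0636), in edgeR with Benjamini-Hochberg adjustment. It was lost too with only the compared groups (adjusted p 0.114) and without the libraries numbered 3 (1.05, adjusted p 0.0787), in edgeR with Benjamini-Hochberg adjustment. Spry2 samples with both agents were also all above those with SR-3420 alone, at a log2 fold change of 0.57 ± 0.2 (edgeR quasi-likelihood test, Benjamini-Hochberg adjusted, adjusted p 0.124). Spry2 passed by DESeq2 (0.59, Benjamini-Hochberg adjusted p 0.0396) and in edgeR with library size alone (0.64, Benjamini-Hochberg adjusted p 0.0461). It passed too with a block for replicate number (0.52, edgeR, Benjamini-Hochberg adjusted p 0.0232). With etomoxir and SR-3420 against SR-3420 alone, 0 of 10 members were called by the edgeR quasi-likelihood test (Benjamini-Hochberg adjusted), 0 had an unadjusted p under 0.05 and DESeq2 called 0. Of all tested genes 0.00782% were called by edgeR, while DESeq2 called 7 higher and 79 lower of 12252. The groups of all 10 members overlapped in that comparison, with log2 fold changes from -0.48 for Dusp4 to 0.56 for Spred1.

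The test of the difference between responses asks whether SR-3420 moved a transcript less or more when an inhibitor was present. Between triacsin C and no inhibitor, 2 of 10 members had a smaller response, Spry4 and Dusp8, and 1.27% of all tested genes had a smaller one. On the log2 scale the Spry4 response was 0.62 with triacsin C and 1.59 without, a difference of -0.97 ± 0.16 (adjusted p 0.00823, edgeR quasi-likelihood test, Benjamini-Hochberg adjusted, 10 samples in the 4 groups). Triacsin C alone had raised Spry4, while the stimulated levels overlapped at 145 to 162 CPM with triacsin C and 158 to 169 CPM without. The Spry4 difference was not called without vehicle replicate 3 (-0.94, adjusted p 0.0623) or without the libraries numbered 3 (-0.91, adjusted p 0.228), in edgeR with Benjamini-Hochberg adjustment. For Dusp8 the difference was -1.07 ± 0.25 (adjusted p 0.0426, edgeR quasi-likelihood test, Benjamini-Hochberg adjusted), and here too triacsin C alone had raised the level and the stimulated levels overlapped. Leaving out 1 library ended the Dusp8 call in 9 of 10 fits, all but that without triacsin C replicate 1, with differences from -1.21 to -0.91 over the 10 fits and adjusted p up to 0.209 (edgeR, Benjamini-Hochberg). The libraries were vehicle replicate 2 (adjusted p 0.0955) and 3 (0.208), SR-3420 replicate 1 (0.209) and 3 (0.0538), triacsin C replicate 2 (0.107) and 3 (0.092), and triacsin C with SR-3420 replicate 1 (0.0898), 2 (0.0865) and 3 (0.0957), each from edgeR with Benjamini-Hochberg adjustment. The Dusp8 difference was also not called with DESeq2 size factors (adjusted p 0.0528), no low-count filter (adjusted p 0.1), only the compared groups (adjusted p 0.0741) or without the libraries numbered 3 (-1.13, adjusted p 0.323), in edgeR with Benjamini-Hochberg adjustment. The other 8 members had differences from -0.52 for Dusp10 to 0.54 for Spred1, with SE up to 0.56, and none was called in this fit.

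Between etomoxir and no inhibitor, 0 of 10 members had a different response by the edgeR quasi-likelihood test, Benjamini-Hochberg adjusted, and 0% of all tested genes were called. At an unadjusted p under 0.05 there was 1 member, Spry4, and DESeq2 called 1, Spry4. Its response was 0.93 with etomoxir and 1.59 without, a difference of -0.67 ± 0.16 with an adjusted p of 0.988 by the edgeR quasi-likelihood test, Benjamini-Hochberg adjusted. By DESeq2 the difference was -0.66 with a Benjamini-Hochberg adjusted p of 0.0155. The responses under triacsin C and under etomoxir differed for 0 of 10 members by the edgeR quasi-likelihood test with Benjamini-Hochberg correction (2.29% of all tested genes were called). There 3 members had an unadjusted p under 0.05 and DESeq2 called 0. These were Dusp8, at a difference of -0.75 ± 0.22 (adjusted p 0.121), Dusp16 at 0.51 ± 0.21 (adjusted p 0.326) and Spry4 at -0.31 ± 0.14 (adjusted p 0.389), from edgeR with Benjamini-Hochberg adjustment. With a block for replicate number, Dusp8 (-0.76, adjusted p 0.0442) and Dusp16 (0.52, adjusted p 0.0292) were called, in edgeR with Benjamini-Hochberg adjustment.

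**Figure D4:**
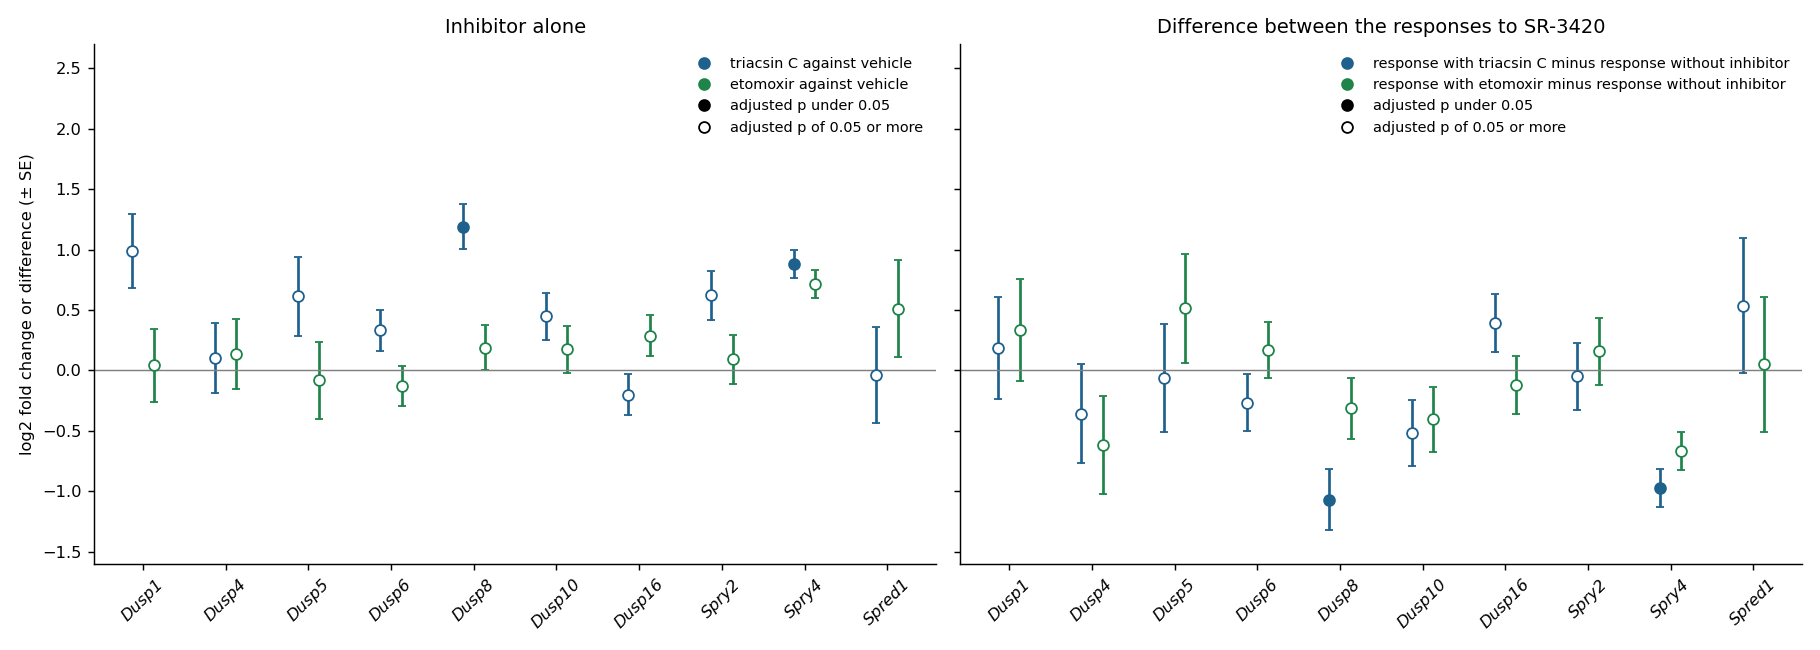
Left, log2 fold change of each member with triacsin C (blue) or etomoxir (green) alone against vehicle; right, the response to SR-3420 with each inhibitor minus the response without (log2 scale, bars are SE), filled where the adjusted p was under 0.05. Dusp8 and Spry4 are the filled points, at 1.19 and 0.88 on the left and at -1.07 and -0.97 on the right.

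The other genes of these families and pathways were counted from fixed lists. Of 6 tested genes among the other MAP kinase phosphatases and Sprouty or Spred genes, 2 rose with SR-3420 against vehicle, 1 rose and 1 fell under triacsin C, and 2 rose under etomoxir, with median log2 fold changes of 0.96, 0.29 and 0.82. The shares of all tested genes that rose were 4.75%, 17.3% and 12.5%. Spred2, a relative of Spred1, rose in all 3, by 1.12, 1.36 and 0.89 on the log2 scale, though its call without inhibitor was lost with only the compared groups in the fit (1.09, adjusted p 0.124, edgeR with Benjamini-Hochberg adjustment). Dusp9 rose by 1.19 without inhibitor, Spry1 fell by 0.46 with SR-3420 under triacsin C, and Spred3 rose by 1.08 under etomoxir. The Dusp9 call was lost in each fit without 1 of the 2 vehicle or 2 SR-3420 libraries (adjusted p 0.0612 to 0.272, edgeR with Benjamini-Hochberg adjustment). The Spry1 call was lost in 5 of 6 fits without 1 library, all but that without triacsin C with SR-3420 replicate 1 (adjusted p 0.0696 to 0.14), and that of Spred3 in 4 of 6, those without etomoxir replicate 1 or 3 or etomoxir with SR-3420 replicate 1 or 2 (adjusted p 0.0559 to 0.116), in edgeR with Benjamini-Hochberg adjustment. Spry1 was also not called by DESeq2 (Benjamini-Hochberg adjusted p 0.0571), nor in edgeR with DESeq2 size factors (adjusted p 0.0553), no low-count filter (0.128) or without the libraries numbered 3 (0.21), each Benjamini-Hochberg adjusted. Dusp9 was not called with only the compared groups (adjusted p 0.186) or without the libraries numbered 3 (0.0824), and Spred3 was not called in these 2 fits (0.146 and 0.118) or with library size alone (0.0501), in edgeR with Benjamini-Hochberg adjustment. Of 11 tested atypical dual-specificity phosphatases, 1 rose without inhibitor (Dusp3, by 0.58), 3 fell under triacsin C (Dusp28, -2.31; Dusp23, -1.49; Dusp19, -0.6) and 3 fell under etomoxir (Dusp28, -1.29; Dusp19, -0.92; Dusp22, -0.66). Of all genes tested by DESeq2, 2447 of 18777 fell under triacsin C and 1955 of 13339 under etomoxir. The Dusp3 call was lost without vehicle replicate 2 or 3 or SR-3420 replicate 1 (adjusted p 0.159 to 0.314, edgeR with Benjamini-Hochberg adjustment). It was lost too with no low-count filter (adjusted p 0.105), only the compared groups (0.374), library size alone (0.104) or without the libraries numbered 3 (0.111), in edgeR with Benjamini-Hochberg adjustment. Under triacsin C, Dusp23 was lost without triacsin C replicate 2 or triacsin C with SR-3420 replicate 1 (adjusted p 0.0601 to 0.0707), and Dusp19 without triacsin C replicate 2 or 3 or triacsin C with SR-3420 replicate 1 or 2 (adjusted p 0.0566 to 0.112) or with no low-count filter (0.0818), in edgeR with Benjamini-Hochberg adjustment. Under etomoxir, Dusp22 was lost without etomoxir replicate 3 or etomoxir with SR-3420 replicate 1 or 2 (adjusted p 0.0549 to 0.0821) or with only the compared groups (0.1), in edgeR with Benjamini-Hochberg adjustment.

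The kinases and adaptors of the Ras and MAP kinase cascade, which the members restrain, are described here by their higher calls. Calls in the lower direction in this list are not given in full. Of 26 tested genes, 3 rose with SR-3420 under triacsin C (Sos2, 1.13; Map2k5, 0.76; Map2k1, 0.66 on the log2 scale) and 1 rose under etomoxir (Map2k1, 0.47). Of all tested genes 17.3% and 12.5% rose in these 2 responses. With only the compared groups the list's counts were 7 and 0, and 2 were lower under triacsin C. The medians of the log2 fold changes of the 26 were -0.01 without inhibitor, 0.34 under triacsin C and 0.03 under etomoxir. The Sos2 call was lost in 5 of 6 fits without 1 library, all but that without triacsin C with SR-3420 replicate 1 (adjusted p 0.0522 to 0.134, edgeR with Benjamini-Hochberg adjustment). Of 11 other negative regulators of receptor tyrosine kinases and Ras, 0 were called without inhibitor by edgeR's quasi-likelihood test (3 at an unadjusted p under 0.05; 0 by DESeq2), 5 rose under triacsin C (17.3% of all tested genes) and 3 rose under etomoxir (12.5% of all tested genes). Cblb, a ubiquitin ligase for activated receptors, rose by 1.78 under triacsin C and 0.88 under etomoxir. Rasal2, a Ras GTPase-activating protein, rose by 1.5 and 0.73, and Errfi1, an inhibitor of the EGF receptor, by 1.4 and 1.91. Under etomoxir, the calls of Map2k1 (0.46, adjusted p 0.101), Cblb (0.85, adjusted p 0.0518) and Rasal2 (0.7, adjusted p 0.0557) were lost with only the compared groups in the fit, in edgeR with Benjamini-Hochberg adjustment.

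Transcripts known to follow ERK activity had calls in every arm with SR-3420. Of 12 tested, 8 rose without inhibitor, 9 under triacsin C and 10 under etomoxir, with 0 lower in each and median log2 fold changes of 1.62, 1.21 and 1.64. Of all tested genes 4.75%, 17.3% and 12.5% rose in these responses, and 4.77% with triacsin C alone. The log2 fold changes of the 12 ran from 0.26 to 2.96, from -0.71 to 2.74 and from 0.3 to 2.88. The list was chosen with earlier results of these data known. The count without inhibitor was 4 with only the compared groups, and 5 without vehicle replicate 3 or SR-3420 replicate 1. The immediate-early transcription factor Egr1 rose by 2.51, 2.74 and 2.88 on the log2 scale in the 3 responses. Fos rose by 2.96 without inhibitor and 1.77 under triacsin C, Fosl1 by 2.23 without inhibitor, Myc by 1.89 under triacsin C and 2.31 under etomoxir, and Ier3 by 2.09 under etomoxir. With triacsin C alone 5 of the 12 rose, among them Ier3 (1.37), Fosl1 (1.3) and Phlda1 (1.25), but 1 did without vehicle replicate 3 and 3 did without the libraries numbered 3. Without vehicle replicate 3, Fosl1 (1.04, adjusted p 0.0921) and Phlda1 (1.01, adjusted p 0.074) missed the threshold in edgeR with Benjamini-Hochberg adjustment.

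With triacsin C alone, where Dusp8 and Spry4 were higher, some genes of the other lists were lower. Of the atypical phosphatases 1 fell (Dusp22, -0.74), and of the other negative regulators 3 fell (Lrig1, -1.47; Nf1, -0.91; Cbl, -0.54), on the log2 scale. In the cascade Map2k5 fell (-1.04). Of all genes tested by DESeq2, 1145 of 13702 fell with triacsin C alone. Dusp22 was lost without any 1 of the 5 libraries compared (adjusted p 0.0669 to 0.222) and Map2k5 without vehicle replicate 2 (adjusted p 0.107), in edgeR with Benjamini-Hochberg adjustment. Lrig1 was lost without vehicle replicate 2 (adjusted p 0.06), Nf1 without vehicle replicate 3 or triacsin C replicate 2 (adjusted p 0.0703 to 0.224), and Cbl without vehicle replicate 2 or 3 or triacsin C replicate 2 or 3 (adjusted p 0.0628 to 0.164), in edgeR with Benjamini-Hochberg adjustment. Without the libraries numbered 3, Nf1 (adjusted p 0.111) and Cbl (0.243) were lost, and Cbl was lost with only the compared groups (0.0599), in edgeR with Benjamini-Hochberg adjustment. None of the 6 other MAP kinase phosphatases and Sprouty or Spred genes was called with triacsin C alone by edgeR's quasi-likelihood test (0 called, 2 at an unadjusted p under 0.05, 2 by DESeq2). With etomoxir alone each of these 5 lists had 0 calls and 0 genes at an unadjusted p under 0.05 in edgeR, and 0 calls by DESeq2.

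Cell type markers were read beside the members. All 10 brown adipocyte markers were in the table and passed the filter, with Fabp4 the most abundant at a mean of 5831 CPM, whereas Ucp1 averaged 2.16 CPM, so the thermogenic marker was near 0. Their summed level was 14520 and 13170 CPM with vehicle and 10810 and 9758 CPM with SR-3420. It was 14540, 15680 and 15050 CPM with triacsin C and 5871, 5844 and 6187 CPM with triacsin C and SR-3420, and 13910, 12960 and 14120 CPM with etomoxir and 7830, 5540 and 9523 CPM with etomoxir and SR-3420. The sum was lower in every sample with SR-3420 than in every sample without it. The members' log2 fold changes with SR-3420 were above 0 in each arm. In the sum Fabp4, Adipoq, Cebpa and Plin1 had the highest means, at 5831, 2065, 1571 and 1203 CPM. The log2 fold changes of the 10 markers had a median of -0.051 without inhibitor, from -0.82 to 0.84. Their medians were -0.6 under triacsin C and -0.43 under etomoxir. Of the 10, 1 fell with SR-3420 against vehicle, 5 fell and 1 rose under triacsin C, 4 fell under etomoxir, and 3 fell with triacsin C alone. Of all genes tested by DESeq2, 680 of 12614, 2447 of 18777, 1955 of 13339 and 1145 of 13702 fell in these comparisons. With triacsin C and SR-3420 against SR-3420 alone, 4 of the 10 markers were lower and 0 higher, with a median log2 fold change of -0.95. There DESeq2 called 748 of 12252 genes lower. The 7 preadipocyte and fibroblast markers, led by Col1a1 at a mean of 1978 CPM, summed to 1517 and 1363 CPM with vehicle and 3588 and 2648 CPM with SR-3420. Their sum was 2243, 1959 and 1724 CPM with triacsin C and 4327, 3551 and 3001 CPM with triacsin C and SR-3420, and 1913, 1377 and 979 CPM with etomoxir and 4263, 3172 and 2238 CPM with etomoxir and SR-3420. These sums were higher with SR-3420 in each arm. The members' log2 fold changes were above 0 in each arm too, though not every member was called. Of the 7, 0 were called without inhibitor by edgeR's quasi-likelihood test (3 at an unadjusted p under 0.05; 2 by DESeq2), 4 rose under triacsin C (17.3% of all tested genes) and 5 under etomoxir (12.5% of all tested genes). With 1 library left out, the brown marker count was 0 without inhibitor whichever of the 4 libraries it was, 3 lower under triacsin C without triacsin C replicate 2 or triacsin C with SR-3420 replicate 2 or 3, and 2 lower under etomoxir without etomoxir with SR-3420 replicate 2. The brown marker that rose under triacsin C did not pass without triacsin C replicate 1 or 3 or triacsin C with SR-3420 replicate 1 or 2, where the count was 0. The fibroblast count under triacsin C was 2 without triacsin C replicate 2 or 3 or triacsin C with SR-3420 replicate 1, and under etomoxir it was 2 or 3 without etomoxir replicate 2 or 3 or etomoxir with SR-3420 replicate 1 or 2. With only the compared groups, 0 brown markers fell without inhibitor, 1 fell under etomoxir and 1 fibroblast marker rose under etomoxir. With no low-count filter 0 brown markers fell without inhibitor, and with at least 10 counts asked of every sample 0 rose under triacsin C. The part of these markers in the members' responses was not tested.

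Markers of other cells were near 0. The 5 macrophage markers in the table summed to 3.97 to 17.98 CPM a sample, most of it Cd68, with Emr1 and Itgam under 10 counts in every sample, and Cd68 was the 1 gene called higher with triacsin C alone and the 1 called lower with SR-3420 under triacsin C. Of the 2 macrophage markers tested, 1 had a lower response with triacsin C than without inhibitor (difference -1.98) and than with etomoxir (-1.44). The 4 endothelial markers summed to 0.86 to 3.58 CPM, led by Kdr, the 1 gene tested, which rose under both inhibitors with SR-3420, and Tek was under 10 counts throughout. Under triacsin C the Kdr count was 0 without triacsin C replicate 1 or 2 or triacsin C with SR-3420 replicate 1 or 2, and it was 0 under both inhibitors when 10 counts were asked of every sample. The 5 skeletal muscle markers summed to 2.24 to 9.53 CPM, led by Myod1, with 0 calls by edgeR's quasi-likelihood test in the 3 responses (1, 1 and 2 of 2 tested genes at an unadjusted p under 0.05; 0 by DESeq2) and with Myf5 and Ckm under 10 counts.

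Members also resembled one another across the 16 samples. Pearson's r between log2 CPM of 2 members had a median of 0.802 over 45 pairs, from -0.047 to 0.992, with 10 pairs over 0.9. The samples share treatment groups and replicate numbers, so these values describe the pattern and carry no test. Among the other tested genes, the 3 most like Dusp5 were Sox9 (r 0.996), Clcf1 (0.991) and Slc2a1 (0.99). For Spry2 they were Lif (r 0.996), Hbegf (0.994) and Clcf1 (0.992), and among the most like Dusp1 were Plaur (r 0.989) and Jun (0.988). Spry4 resembled another set, Angptl4 (r 0.968), Pdk4 (0.966) and Fgf21 (0.965). Sox9 and Slc2a1 were also among the 3 most like Dusp6, at r 0.989 and 0.977.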

How the data were processed

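The authors aligned reads with STAR 2.4.2a to mm9, kept 1 read per position and length with HOMER, and counted reads per RefSeq gene with iRNA-seq. The deposited counts are raw counts of reads per gene, in 16 samples of 6 groups, and strand use is not stated. The deposited table also gives, as another unit, the counted length in bases per gene, used here for levels per kb. Members and gene lists were chosen with earlier results of these data known.

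Counts were fitted in edgeR 4.0.16 (R 4.3.3) with TMM scaling, filterByExpr and 1 mean per group over all 16 samples, with no block, and tested by the quasi-likelihood test. P-values were two-sided and adjusted by Benjamini-Hochberg over 12786 genes, and a call is an adjusted p under 0.05. Standard errors are the absolute log2 fold change over the square root of F. The comparisons were SR-3420 against none in each arm, each inhibitor alone and with SR-3420, and the differences between the 3 responses. CPM are TMM-normalized, and log2 CPM for correlations used a prior count of 2. Alternatives were DESeq2 1.42.0 (size factors, and its Wald test), other filters (none, or 10 counts in every sample), a block for the replicate number, a fit of the compared groups alone, a stricter call with a log2 fold change of at least 1, and leaving out each library. Leaving out the libraries numbered 3 and library size alone were added after seeing the data. All members are named. From each of the 5 pathway lists, up to 3 called genes per direction were named by size in the 3 responses and with each inhibitor alone. Not every gene this rule selects is reported. The 5 marker lists were brown adipocyte, preadipocyte and fibroblast, macrophage, endothelial and skeletal muscle. The code was tested on simulated data, where recovery of large changes fell short of the bound first set, which was then lowered. Precision depended on the spread among replicates as well as on total counts per sample, and no value here has an absolute scale. Promoter windows came from RefSeq on GRCm38.p6, and motifs and printed windows were chosen after the values were seen. Figures used matplotlib 3.10.9 in Python 3.11.15.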

Additional observations from a re-analysis of the deposited data

Results flagged for a closer look

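The test of the difference between responses singled out 2 members. The Dusp8 response to SR-3420 with triacsin C minus that without inhibitor was -1.07 on the log2 scale. For Spry4 the same difference was -0.97 (-0.975). Without the libraries numbered 3 the differences were -1.13 for Dusp8 and -0.91 for Spry4. The Dusp8 call was lost with DESeq2 size factors, no low-count filter or only the compared groups. The other fits that ended either call are given above.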

How the results depend on the processing

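Each member count was recomputed under 7 other settings and each value under 6 of them, all but the stricter call. Both were recomputed under 2 more settings chosen after seeing the data (leaving out the libraries numbered 3, and library size alone) and without each library of the groups compared. The members' counts changed as follows, and the cause was not tested. SR-3420 against vehicle, with 7, gave 3 with only the compared groups, 8 by DESeq2 and 9 with a block for replicate number. The response under triacsin C, with 9, gave 6 when a log2 fold change of at least 1 was also asked for, 10 with only the compared groups and with the block, 8 without the libraries numbered 3 and with library size alone, and 7 or 8 without 1 library. The response under etomoxir, with 8, gave 6 with that stricter call, 7 with no filter, only the compared groups or library size alone, 9 with the block and without the libraries numbered 3, and 7 to 9 without 1 library. With the block Dusp4 was called without inhibitor (0.79, adjusted p 0.00748) and under triacsin C (0.5, adjusted p 0.00675), in edgeR with Benjamini-Hochberg adjustment, and 1423, 3515 and 2897 of all tested genes rose in the 3 responses. By DESeq2 889 of 12614 genes rose without inhibitor. Triacsin C against vehicle gave 1 with the stricter call and without the libraries numbered 3, 3 with only the compared groups, library size alone or without triacsin C replicate 1, 4 by DESeq2 and 5 with the block. Of all genes, 820 of 13702 rose with triacsin C alone by DESeq2 and 1530 of 12786 with the block, against 610 of 12786 in the main fit. Etomoxir against vehicle gave 1 by DESeq2 and 1 with the block. There all genes gave 7 higher and 10 lower by DESeq2, and 4 higher and 2 lower with the block. Adding triacsin C to SR-3420 gave 2 by DESeq2, with the block and with library size alone, 0 with only the compared groups and without the libraries numbered 3, and 0 in every fit without 1 of its 5 libraries. Of all genes, 456 of 12252 were higher with triacsin C added to SR-3420 by DESeq2 and 1277 of 12786 with the block, against 131 of 12786 in the main fit. Adding etomoxir to SR-3420 gave 1 with the block (Dusp4, -0.5, adjusted p 0.0455, edgeR, Benjamini-Hochberg), where 761 of all tested genes were higher and 1077 lower. The difference between triacsin C and no inhibitor gave 1 with the stricter call, DESeq2 size factors, no filter or only the compared groups, 0 without the libraries numbered 3, and 0 to 2 without 1 library. That between etomoxir and none gave 1 by DESeq2, and that between triacsin C and etomoxir gave 2 with the block. All tested genes gave 3 higher and 6 lower in the first by DESeq2. In the second they gave 634 higher and 421 lower with the block. Samples of 1 number share only that number in the labels: their deviations correlated at a mean r of 0.41 over 35 pairs, against -0.203 over 71 pairs of different number.

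Of the members' 100 log2 values, between 85 and 100 kept their sign and their side of the threshold under each setting, and 601 of 680 did with 1 library left out. A sign changed 62 times in 25 results, none of them called. Against vehicle, Dusp4 with triacsin C was -0.092 and Spred1 0.2 without the libraries numbered 3, Spred1 0.15 with the block, and Dusp1 with etomoxir -0.077 with the block and -0.015 without the libraries numbered 3. Dusp6 with triacsin C added to SR-3420 was -0.003 without the libraries numbered 3. In the difference between triacsin C and none, Dusp5 was 0.007 and Spry2 0.02 with no filter, 0.15 and 0.019 without the libraries numbered 3, and 0.073 and 0.09 with library size alone. In the difference between etomoxir and none, Dusp16 was 0.046 without the libraries numbered 3 and Spred1 -0.012 with the block. The log2 values over the fits without 1 library, where a sign changed, were these. Triacsin C against vehicle gave Dusp4 -0.17 to 0.43, Spred1 -0.30 to 0.28. Etomoxir against vehicle gave Dusp1 -0.22 to 0.37, Dusp4 -0.13 to 0.46, Dusp5 -0.40 to 0.34, Spry2 -0.081 to 0.29, Spred1 -0.005 to 0.83. Adding triacsin C to SR-3420 gave Dusp4 -0.61 to 0.22, Dusp6 -0.076 to 0.22, Dusp8 -0.021 to 0.28, Dusp10 -0.32 to 0.22. Adding etomoxir to SR-3420 gave Dusp6 -0.099 to 0.20, Dusp8 -0.27 to 0.028, Dusp10 -0.48 to 0.065, Spry4 -0.029 to 0.093. The difference between triacsin C and none gave Dusp1 -0.14 to 0.53, Dusp4 -0.71 to 0.12, Dusp5 -0.48 to 0.26, Spry2 -0.25 to 0.13. The difference between etomoxir and none gave Dusp16 -0.28 to 0.056, Spry2 -0.044 to 0.33, Spred1 -0.27 to 0.57. The difference between triacsin C and etomoxir gave Dusp1 -0.31 to 0.057, Dusp10 -0.22 to 0.016, Spred1 -0.032 to 0.78. Library size alone moved the median of all genes by -0.11 (SR-3420 against vehicle) and 0.13 (the difference between triacsin C and none). With the block, 11 cascade genes rose and 4 fell under triacsin C, and 3 rose and 2 fell under etomoxir. Without inhibitor 1 rose and 3 fell with the block. Of 1320 alternative values of the list counts, 1185 stayed within 1.5 times the count, and of 579 for the named list genes 501 kept sign and side of the threshold, with 0 changes of sign. With 2 or 3 samples a group, the SE of a member's response difference reached 0.56 on the log2 scale (Spred1), which limits what was detectable.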
